A study of Mus musculus with 6 samples.

Results

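The insulin-like growth factor (IGF) system was followed here through 10 genes, which were taken by symbol from the 56748 genes of the deposited count table. They encode the ligands *Igf1* and *Igf2*, the receptor *Igf1r*, the binding proteins *Igfbp2*, *Igfbp3*, *Igfbp4*, *Igfbp5*, *Igfbp6* and *Igfbp7*, and the protease *Pappa*. RNA was sequenced from 6 cultures of primary cells isolated as osteocytes from the long bones of mice, 3 WT and 3 labelled cKO. The WT mice were C57BL/6J (C57BL/6 in the account of the isolation), and the cKO mice carried *Gsdmd* fl/fl alleles together with DMP1-Cre, a Cre recombinase driven by the promoter of dentin matrix protein 1. The methods give the age of the mice used for isolation as 7 weeks. Every culture was grown for 7 days and then was stimulated for 3 h with 10 ng/mL of lipopolysaccharide (LPS) and for another 3 h with 20 µg/mL of aluminum hydroxide, which activates the inflammasome. Unstimulated cultures were not analysed here, so each difference is one between genotypes after stimulation. The sources used here do not state how many animals went into a culture or whether the 3 libraries of a group came from separate animals, so p-values measure only the spread between these libraries, which may be technical.

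IGF1 and IGF2 are secreted peptides that bind the receptor tyrosine kinase IGF1R and signal through insulin receptor substrates to PI3K and AKT, which restrain the FoxO transcription factors. In the extracellular space the ligands are held by IGF-binding proteins, which lengthen their life and limit their access to the receptor, and proteases such as PAPP-A release them by cutting the binding protein. In bone, IGF1 from osteoblast-lineage cells, osteocytes among them, and from other sources supports bone formation, and osteoblasts secrete a large share of the known binding proteins.

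The libraries held between 39566835 and 49734046 counts on genes. Levels are given as CPM, that is, counts per 1000000 counts of the library total as scaled by edgeR's TMM method, and, where genes are compared with each other, as RPKM, that is, CPM per kilobase of gene length. *Gsdmd*, the floxed gene, was counted 609, 699 and 549 times in WT and 885, 937 and 1045 times in the libraries labelled cKO. Its log2 fold change was 0.69 (standard error 0.083, adjusted p = 2.27e-06 by edgeR's quasi-likelihood test, Benjamini-Hochberg). This is a rise in the gene that the label gives as deleted. The counts pool all exons of *Gsdmd* and do not show the floxed exons apart, so they cannot check the label. Every direction below therefore rests on the labels as given. The macrophage markers given below also rose, and their part in the *Gsdmd* level was not tested. *Xist*, the RNA of the inactive X chromosome, had 0 to 4 counts in the WT libraries and 44817 to 51216 in those labelled cKO, in which the Y-linked genes *Ddx3y*, *Uty* and *Eif2s3y* had 0 counts. The methods describe the mice as matched for sex, but in these libraries sex and genotype cannot be told apart. Of the osteocyte markers, *Sost* had 0 counts in every library, *Dmp1* 0 to 6 and *Mepe* 0 to 2, and only *Pdpn* was expressed well enough to be tested, so that the markers that define osteocytes were absent or nearly so in both groups. Of 17 macrophage markers 16 could be tested, and all 16 rose in the libraries labelled cKO, and the summed level of the list went from 1223 to 1382 CPM in WT to 6613 to 6942 CPM. *Csf1r*, the receptor that defines the macrophage lineage, had 1085 to 1276 counts in the WT libraries and 9340 to 11055 in those labelled cKO, whereas *Cd163* stayed at 0 to 15. The summed osteoblast markers went from 16820 to 19030 CPM in WT to 12080 to 12590 CPM, a sum made up mostly of *Spp1*, *Col1a1* and *Col1a2*. Of the 7 osteoblast markers tested, 4 fell, *Ibsp* (log2 fold change 2.01) and *Alpl* (0.68) rose, and *Col1a2* did not pass. The summed smooth muscle markers went from 1141 to 1331 CPM in WT to 492.4 to 552.4 CPM, and the summed fibroblast markers from 303.1 to 312.5 CPM to 206.2 to 229.7 CPM. Of the 6 fibroblast markers tested, 4 fell, *Dpt* (log2 fold change 1.35) rose, and 1 did not pass. The summed chondrocyte markers went from 1957 to 2169 CPM in WT to 2921 to 3109 CPM, where 4 of 5 tested genes rose (*Acan* from 2 to 8 counts to 782 to 922) and *Col2a1* fell, and the summed marrow stromal markers from 1286 to 1313 CPM to 2103 to 2136 CPM. Of the 5 marrow stromal markers tested, *Cxcl12* (log2 fold change 1.66) and *Pdgfra* (0.45) rose, *Kitl* (-1.82) fell, and 2 did not pass. Mean *Cxcl12* went from 333.6 CPM in WT to 1053 CPM in the libraries labelled cKO. The endothelial markers summed to 6.32 to 6.84 CPM over all libraries, but this flat sum hides members that moved. Of the 5 tested, *Kdr* (log2 fold change 2.04) rose and 4 fell, *Emcn* the most (-5.91), all at low levels. All of these sums except the endothelial one moved with the genotype labels and so with every difference below, and their part in it was not tested. In bulk RNA, fewer cells of a type and less RNA per cell cannot be told apart.

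Of the 10 genes, 9 had enough counts to be tested, and all 9 differed between the groups at an adjusted p below 0.05. *Igf1*, *Igfbp4*, *Igfbp5* and *Igfbp6* rose in the libraries labelled cKO, and *Igfbp2*, *Igfbp7*, *Igfbp3*, *Pappa* and *Igf1r* fell. Over all 17146 tested genes, 39.3% passed the same threshold, 20.1% higher and 19.2% lower. All 9 have a mean above 50 CPM over the 6 libraries, and among the 4109 tested genes with a mean of at least 50 CPM 60.3% passed. With a limit of 1 on the size of the log2 fold change, *Igf1* remained among the higher genes and *Igfbp2* among the lower ones, where 11.2% of all tested genes remained (6.56% higher and 4.64% lower). The 3 libraries of one group did not overlap with those of the other for any of the 9 genes, which also held for 49.2% of all tested genes. Higher genes made up 51.2% of all genes called, and 39.5% with upper-quartile scaling in place of TMM, but the 9 genes had the same directions under each of the 4 scalings tried. The median log2 fold change was -0.16 over the 9 and 0.0077 over all tested genes, and replicates of a group varied with a biological coefficient of variation of 8.36%.

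**Figure D1:**
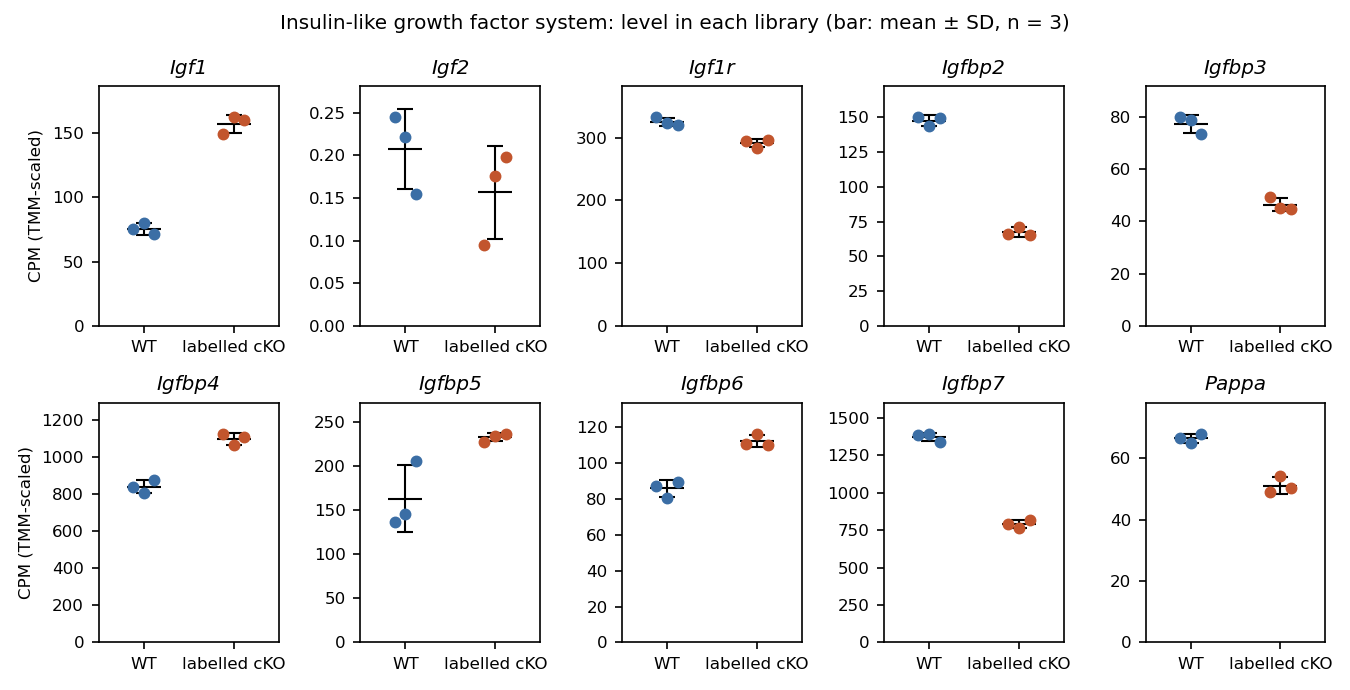
Level of each of the 10 genes in CPM, on axes starting at 0, with 1 point per library and a bar for the mean ± SD of the 3 WT libraries (blue) and the 3 libraries labelled cKO (orange). The points of both groups stand apart for 9 genes and overlap for *Igf2*, and *Igfbp5* shows 1 WT library at 206.1 CPM well above the other WT libraries.

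*Igf1*, the ligand that carries most IGF signalling in postnatal bone, was higher in the libraries labelled cKO. Its level was 75.0, 80.0 and 71.1 CPM in the WT libraries and 149.2, 162.2 and 159.9 CPM in those labelled cKO. The lowest of the latter lay well above the highest WT library. The means were 75.4 ± 4.48 and 157.1 ± 6.95 CPM (SD, n = 3 each), a 2.08-fold difference or 1.06 on the log2 scale (95% interval 0.95 to 1.17, adjusted p = 2.07e-11 by edgeR's quasi-likelihood test, Benjamini-Hochberg). This difference was larger in size than that of 87.6% of all tested genes, and under upper-quartile scaling it was 0.99, just below the limit of 1. *Igf1* is expressed by macrophages as well as by bone cells. It rose less than *Csf1r* did, so that the ratio of *Igf1* counts to *Csf1r* counts went from 2.90 ± 0.308 in WT to 0.669 ± 0.0189 (SD, n = 3 each), and the part of macrophage RNA in the *Igf1* level was not tested. The gene lies on chromosome 10 from 87694127 to 87772904 of GRCm39, on the plus strand. *Igf1os*, which overlaps its 5′ end on the opposite strand, was counted 0 times in WT and 4, 2 and 5 times in the libraries labelled cKO, and the sources do not state whether strand was used in counting.

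*Igf2*, the ligand that dominates before birth and is imprinted, was nearly absent. It lies on the minus strand of chromosome 7 from 142204503 to 142220553. Its counts were 11, 11 and 6 in WT and 4, 7 and 9 in the libraries labelled cKO, or 0.207 ± 0.0467 and 0.156 ± 0.0543 CPM (SD, n = 3 each). The groups overlapped, and the gene did not reach the filter on low counts. Without that filter its log2 fold change was -0.40 (adjusted p = 0.803 by edgeR's quasi-likelihood test, Benjamini-Hochberg), so that a difference was not detectable at this depth. *H19*, the imprinted RNA that lies 72616 bases away on the same strand and is read from the other parental allele, had by contrast 793 to 1373 counts in the WT libraries and 1716 to 1849 in those labelled cKO. It rose from 25.3 ± 5.05 to 42.0 ± 2.16 CPM (SD, n = 3 each, log2 fold change 0.73, adjusted p = 1.52e-05 by edgeR's quasi-likelihood test, Benjamini-Hochberg). The 3 proteins that bind and stabilize *Igf2* RNA in the embryo all fell. *Igf2bp2* went from 58.4 ± 2.82 to 29.4 ± 0.89 CPM, *Igf2bp1* from 3.47 ± 0.592 to 0.586 ± 0.15 CPM and *Igf2bp3* from 6.87 ± 0.529 to 0.925 ± 0.195 CPM (SD, n = 3 each). Their log2 fold changes were -0.99, -2.56 and -2.90, and the adjusted p-values lay between 2.21e-10 and 8.39e-07 by edgeR's quasi-likelihood test, Benjamini-Hochberg.

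*Igf1r*, the receptor through which both ligands signal, fell slightly. It lies on the plus strand of chromosome 7 from 67602575 to 67883416. It stood at 332.3, 322.5 and 320.8 CPM in WT and at 294.6, 283.2 and 295.5 CPM in the libraries labelled cKO. All WT libraries were above all others, but the gap was narrow. The means of 325.2 ± 6.20 and 291.1 ± 6.87 CPM (SD, n = 3 each) differed by -0.16 on the log2 scale (95% interval -0.24 to -0.08, adjusted p = 0.00281 by edgeR's quasi-likelihood test, Benjamini-Hochberg). Of all tested genes, only 36.4% had a smaller difference in size. Per length, *Igf1* RNA stood at 0.393 ± 0.0242 of the *Igf1r* level in WT and at 0.916 ± 0.0562 in the libraries labelled cKO (RPKM over RPKM, SD, n = 3 each). Of 5 further ligand and receptor genes, *Insr*, the insulin receptor, fell from 86.8 ± 2.91 to 74.2 ± 1.84 CPM (log2 fold change -0.23), and *Igf2r*, which carries IGF2 to the lysosome, from 425.2 ± 18.9 to 386.1 ± 11 CPM (-0.14, SD, n = 3 each). Their adjusted p-values were 0.00106 and 0.0121 by edgeR's quasi-likelihood test, Benjamini-Hochberg. *Ins1*, *Ins2* and *Insrr* had 0 counts in every library.

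The binding proteins split, with 3 falling and 3 rising. *Igfbp7*, a secreted protein of the matrix with low affinity for IGF, had the highest level per length of the 10 genes in every library. Its level was 1385, 1392 and 1340 CPM in WT and 789.6, 764.1 and 815.1 CPM in the libraries labelled cKO. The lowest WT library was far above the highest one labelled cKO. The 1.74-fold fall, from 1373 ± 28.2 to 789.6 ± 25.5 CPM (SD, n = 3 each), was -0.80 on the log2 scale (95% interval -0.87 to -0.72, adjusted p = 3.88e-12 by edgeR's quasi-likelihood test, Benjamini-Hochberg). The 3′ end of *Igfbp7*, on chromosome 5 from 77497087 to 77555888 of the minus strand, overlaps *Polr2b*, which stood at 74.0 and 78.7 CPM on average and did not pass (adjusted p = 0.153 by edgeR's quasi-likelihood test, Benjamini-Hochberg).

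*Igfbp2*, which binds IGF2 with some preference and is made by osteoblasts, had the largest fall among the 10. Its level was 150.0, 143.4 and 149.6 CPM in WT and 65.8, 71.3 and 65.5 CPM in the libraries labelled cKO. Within each group the libraries lay close together, and the groups were far apart. The fall was 2.19-fold, from 147.7 ± 3.68 to 67.6 ± 3.28 CPM (SD, n = 3 each), or -1.13 on the log2 scale (95% interval -1.23 to -1.03, adjusted p = 3.18e-12 by edgeR's quasi-likelihood test, Benjamini-Hochberg). *Igfbp3*, the main carrier of IGF in serum (chromosome 11, minus strand, 7156086 to 7163923), stood at 79.9, 79.0 and 73.6 CPM in WT and at 49.3, 45.2 and 44.8 CPM in the libraries labelled cKO, again without overlap. It fell from 77.5 ± 3.43 to 46.4 ± 2.51 CPM (SD, n = 3 each, log2 fold change -0.74, standard error 0.055, adjusted p = 5.4e-09 by edgeR's quasi-likelihood test, Benjamini-Hochberg).

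*Igfbp4*, an inhibitor of IGF action and the main substrate of PAPP-A, moved the other way. It lies on the plus strand of chromosome 11 from 98932070 to 98945218. The level stood at 839.2, 805.8 and 877.3 CPM in WT and at 1126, 1063 and 1108 CPM in the libraries labelled cKO. All WT libraries were below all those labelled cKO. The rise from 840.8 ± 35.8 to 1099 ± 32.5 CPM (SD, n = 3 each) was 1.31-fold (log2 fold change 0.39, 95% interval 0.31 to 0.47, adjusted p = 2.16e-07 by edgeR's quasi-likelihood test, Benjamini-Hochberg). *Igfbp6*, which prefers IGF2 (chromosome 15, plus strand, 102052797 to 102057946), went from 87.2, 80.6 and 89.5 CPM in WT to 110.5, 116.3 and 110.2 CPM, likewise without overlap. Its log2 fold change was also 0.39 (standard error 0.05, adjusted p = 6.22e-06 by edgeR's quasi-likelihood test, Benjamini-Hochberg).

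*Igfbp5*, which binds to bone matrix and hydroxyapatite, was the least even of the binding proteins among WT libraries. It stood at 136.1, 145.5 and 206.1 CPM in WT and at 227.4, 234.3 and 236.4 CPM in the libraries labelled cKO. WT replicate 3 lay nearer to the libraries labelled cKO than to the other WT libraries, though still below them. The means were 162.6 ± 38.0 and 232.7 ± 4.74 CPM (SD, n = 3 each), a 1.43-fold rise (log2 fold change 0.52, 95% interval 0.31 to 0.73, adjusted p = 0.000454 by edgeR's quasi-likelihood test, Benjamini-Hochberg). Without WT replicate 3 the log2 fold change was 0.72, and without WT replicate 1 it was 0.39. WT replicate 3 also had the highest WT sums of osteoblast (19030 CPM), smooth muscle (1331 CPM), fibroblast (312.5 CPM) and macrophage markers (1382 CPM). Its sums of marrow stromal (1286 CPM) and endothelial markers (6.415 CPM) were the lowest in WT. Its osteoblast, smooth muscle, fibroblast and marrow stromal sums lay farther from the libraries labelled cKO than those of the other WT libraries. Its macrophage sum lay nearer to them. The part of these in its *Igfbp5* level was not tested. Outside the 6 members, *Igfbp1* and *Igfbpl1* had 0 counts in every library, and *Igfals*, the third partner in the serum complex of IGF and *Igfbp3*, had 4 to 22.

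The mix of binding-protein transcripts differed accordingly. On the RPKM scale *Igfbp7* made up 74.0 ± 1.25% of the summed *Igfbp1* to *Igfbp7* level in WT and 59.7 ± 0.744% in the libraries labelled cKO, whereas *Igfbp4* went from 12.4 ± 0.565% to 22.8 ± 0.42% (SD, n = 3 each). *Igfbp6* took 5.03 ± 0.277% in WT and 9.25 ± 0.467% in the libraries labelled cKO, *Igfbp2* 5.21 ± 0.129% and 3.35 ± 0.23%, and *Igfbp5* 1.77 ± 0.422% and 3.55 ± 0.0987% (SD, n = 3 each). The shares did not overlap between the groups for these 5 genes or for *Igfbp3* (1.61 ± 0.0637% and 1.36 ± 0.0761%, SD, n = 3 each). In CPM, the groups did not overlap for 49.2% of all tested genes. Shares of 1 sum are tied together, so the fall of *Igfbp7* by itself raises the other shares. The summed level was 1535 ± 8.46 RPKM in WT and 1093 ± 22.2 RPKM in the libraries labelled cKO (SD, n = 3 each), and without *Igfbp7* it was 399.3 ± 18.0 in WT and 440.0 ± 3.24 RPKM in the libraries labelled cKO. For every 100 RPKM of *Igfbp2* to *Igfbp6* together there were 1.91 ± 0.199 RPKM of *Igf1* in WT and 3.61 ± 0.185 in the libraries labelled cKO (SD, n = 3 each). These shares and ratios are descriptions of RNA levels, no test was made of them, and they depend on the gene lengths in the deposited table.

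**Figure D2:**
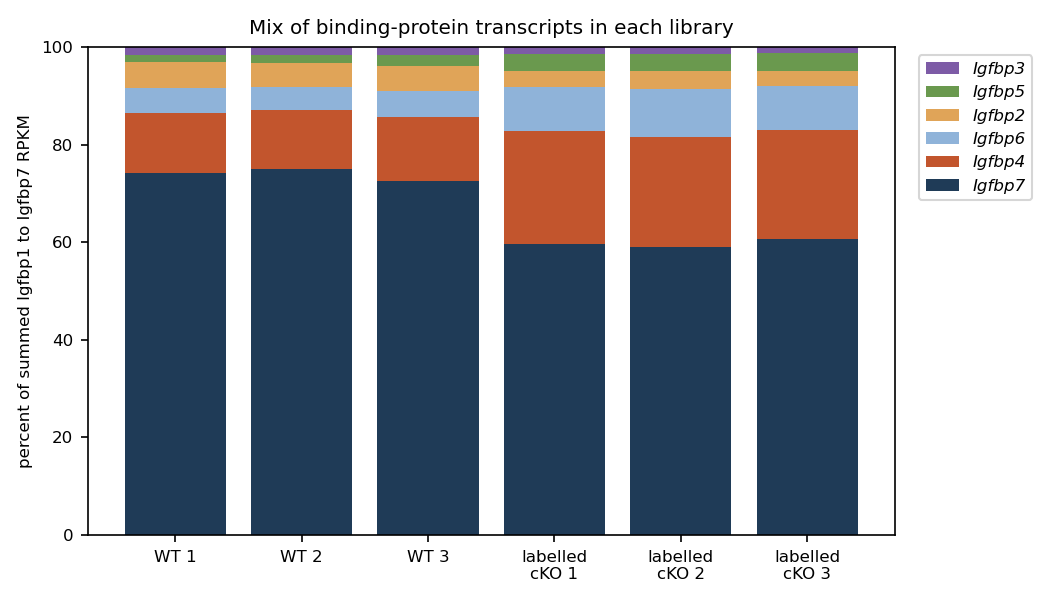
Share of each binding protein in the summed *Igfbp1* to *Igfbp7* RPKM, in percent, as 1 stacked bar per library. *Igfbp7* fills 72.6% to 75.1% of the WT bars and 59.1% to 60.6% of the bars labelled cKO, and *Igfbp4* 11.9% to 13.0% and 22.5% to 23.3%.

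By level per length, the order in WT was *Igfbp7* (1135 RPKM), *Igfbp4* (190.4), *Igfbp2* (80.0), *Igfbp6* (77.1), *Igfbp5* (27.1), *Igfbp3* (24.8), *Igf1r* (19.4), *Igf1* (7.61), *Pappa* (6.02) and *Igf2* (0.0361). Neighbours in this order overlapped between libraries for *Igfbp2* with *Igfbp6* and for *Igfbp5* with *Igfbp3*. In the libraries labelled cKO, *Igfbp6* (101.0 RPKM) and *Igfbp5* (38.7 RPKM) both ranked above *Igfbp2* (36.6 RPKM), and *Igf1* (15.9 RPKM) above *Igfbp3* (14.8 RPKM). In that group *Igfbp5* overlapped with *Igfbp2*, and *Igf1* with *Igfbp3*.

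*Igfbp2* and *Igfbp5* are neighbours on chromosome 1 and point towards each other. *Igfbp2* runs on the plus strand from 72863662 to 72891633 and *Igfbp5* on the minus strand from 72897091 to 72914043, with 5457 bases and 0 genes of the table between them. They moved in opposite directions, so that the ratio of *Igfbp5* to *Igfbp2* RPKM was 0.279, 0.312 and 0.424 in WT and 1.06, 1.01 and 1.11 in the libraries labelled cKO. The other pair of this kind on chromosome 11 could not be compared, since *Igfbp1*, 3539 bases from *Igfbp3*, had 0 counts throughout.

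The sequence just upstream of the start site was available in RefSeq (GRCm38.p6) for 9 of the 10 genes and was placed on GRCm39 by exact match, and 4 of these are shown. They are those of *Igf1* and *Igfbp2*, which had the largest rise and fall, of *Igfbp5*, the neighbour that moved against *Igfbp2*, and of *Igfbp7*, the gene with the highest level per length. RefSeq gives a second start site for *Igfbp2*, 884 bases inside the gene of the count table, and the start site of *Igf1* lies 2846 bases inside its gene. Each line gives the 150 bases before the start site, for *Igfbp2* the outer one, 5′ to 3′ on the strand of the gene, with matches to 3 short motifs in capitals. The motifs were searched on both strands. They were the TATA box, with the letters TATAAA, and the GC box bound by Sp1, with the letters GGGCGG. The GC box reads as CCGCCC where it lies on the opposite strand. The last was an AP-1-like motif, with the letters TGANTCA, where N is any base. It reads as the same motif on both strands.
Igf1, chr10:87696823-87696972, plus strand: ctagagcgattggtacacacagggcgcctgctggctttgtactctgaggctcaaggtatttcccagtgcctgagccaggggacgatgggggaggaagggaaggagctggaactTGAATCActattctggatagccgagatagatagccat
Igfbp2, chr1:72863489-72863638, plus strand: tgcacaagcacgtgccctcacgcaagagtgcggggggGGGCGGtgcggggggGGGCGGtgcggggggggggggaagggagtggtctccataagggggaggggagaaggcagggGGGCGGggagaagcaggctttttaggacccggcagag
Igfbp5, chr1:72914025-72914174, minus strand: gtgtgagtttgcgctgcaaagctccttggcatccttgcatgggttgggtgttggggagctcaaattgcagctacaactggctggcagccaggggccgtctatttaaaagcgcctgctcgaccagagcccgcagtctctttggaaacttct
Igfbp7, chr5:77555893-77556042, minus strand: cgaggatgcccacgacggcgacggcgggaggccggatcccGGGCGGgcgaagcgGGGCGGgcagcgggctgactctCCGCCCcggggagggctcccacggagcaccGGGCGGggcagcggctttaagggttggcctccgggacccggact

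Over the windows of all 32851 RefSeq promoters, the TATA box was found in 7.57%, the GC box in 28.6% and the AP-1-like motif in 4.24%. The *Igfbp7* window held 4 GC boxes and the outer *Igfbp2* window 3, and their GC contents were 78.0% and 72.0% beside a median of 54.0% over all windows. The window of the inner *Igfbp2* start site held 0 GC boxes and 1 AP-1 site, at a GC content of 54.0%. The *Igfbp5* window held no exact match to the 3 motifs at a GC content of 55.3%, and variants of their letters were not searched. The *Igf1* window had 1 match to the AP-1-like motif (TGAATCA, with A as its middle base) at a GC content of 54.0%. This match begins 37 bases before the start site. Of the genes not shown, *Igfbp4*, which rose, had a TATA box 28 bases before its start site and a GC content of 73.3%. *Igfbp6*, which also rose, was at 50.7%. *Igfbp3*, which fell, held no match to the 3 motifs at 78.7%, and *Igf1r*, which fell too, held 2 GC boxes at 78.7%. High GC content was thus found among genes that rose and among genes that fell. These are matches of letters, and no binding of a factor was measured in these cultures.

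*Pappa* encodes PAPP-A, the metalloprotease that cuts IGFBP4 and IGFBP5 and so frees IGF, and lies on the plus strand of chromosome 4 from 65042411 to 65275746. It fell from 66.5, 64.8 and 67.9 CPM in WT to 49.0, 54.1 and 50.2 CPM in the libraries labelled cKO. The WT libraries lay close together, above all those labelled cKO. The means were 66.4 ± 1.58 and 51.1 ± 2.67 CPM (SD, n = 3 each, log2 fold change -0.38, standard error 0.053, adjusted p = 1.42e-05 by edgeR's quasi-likelihood test, Benjamini-Hochberg). Per length, *Igfbp4* RNA was 31.6 ± 0.602 times the *Pappa* level in WT and 53.9 ± 4.31 times in the libraries labelled cKO (SD, n = 3 each).

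The genes around *Pappa* also differed. In the list of IGFBP proteases and stanniocalcins, 6 of 7 genes were tested, of which 1 rose and 4 fell. *Stc2*, an inhibitor of PAPP-A, stood at 16.1, 18.2 and 14.6 CPM in WT and at 3.71, 4.15 and 4.69 CPM in the libraries labelled cKO, without overlap (log2 fold change -1.96, standard error 0.13, adjusted p = 7.58e-10 by edgeR's quasi-likelihood test, Benjamini-Hochberg). Its relative *Stc1*, which also inhibits PAPP-A, stood at 138.1, 146.6 and 135.8 CPM in WT and at 246.4, 225.5 and 251.3 CPM in the libraries labelled cKO (log2 fold change 0.78, standard error 0.049, adjusted p = 4.37e-10 by edgeR's quasi-likelihood test, Benjamini-Hochberg). The pair thus moved in opposite directions, and the ratio of *Stc1* to *Stc2* counts went from 8.64 ± 0.62 to 58.1 ± 7.23 (SD, n = 3 each). *Adam12*, a protease that can cut IGFBP3 and IGFBP5, fell from 73.9 ± 5.34 to 32.1 ± 1.99 CPM (SD, n = 3 each, log2 fold change -1.20, adjusted p = 4.91e-11 by edgeR's quasi-likelihood test, Benjamini-Hochberg). *Htra1* (log2 fold change -0.21) and *Adam9* (-0.10) fell by little, and *Pappa2* did not pass (0.06, adjusted p = 0.825 by edgeR's quasi-likelihood test, Benjamini-Hochberg).

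**Figure D3:**
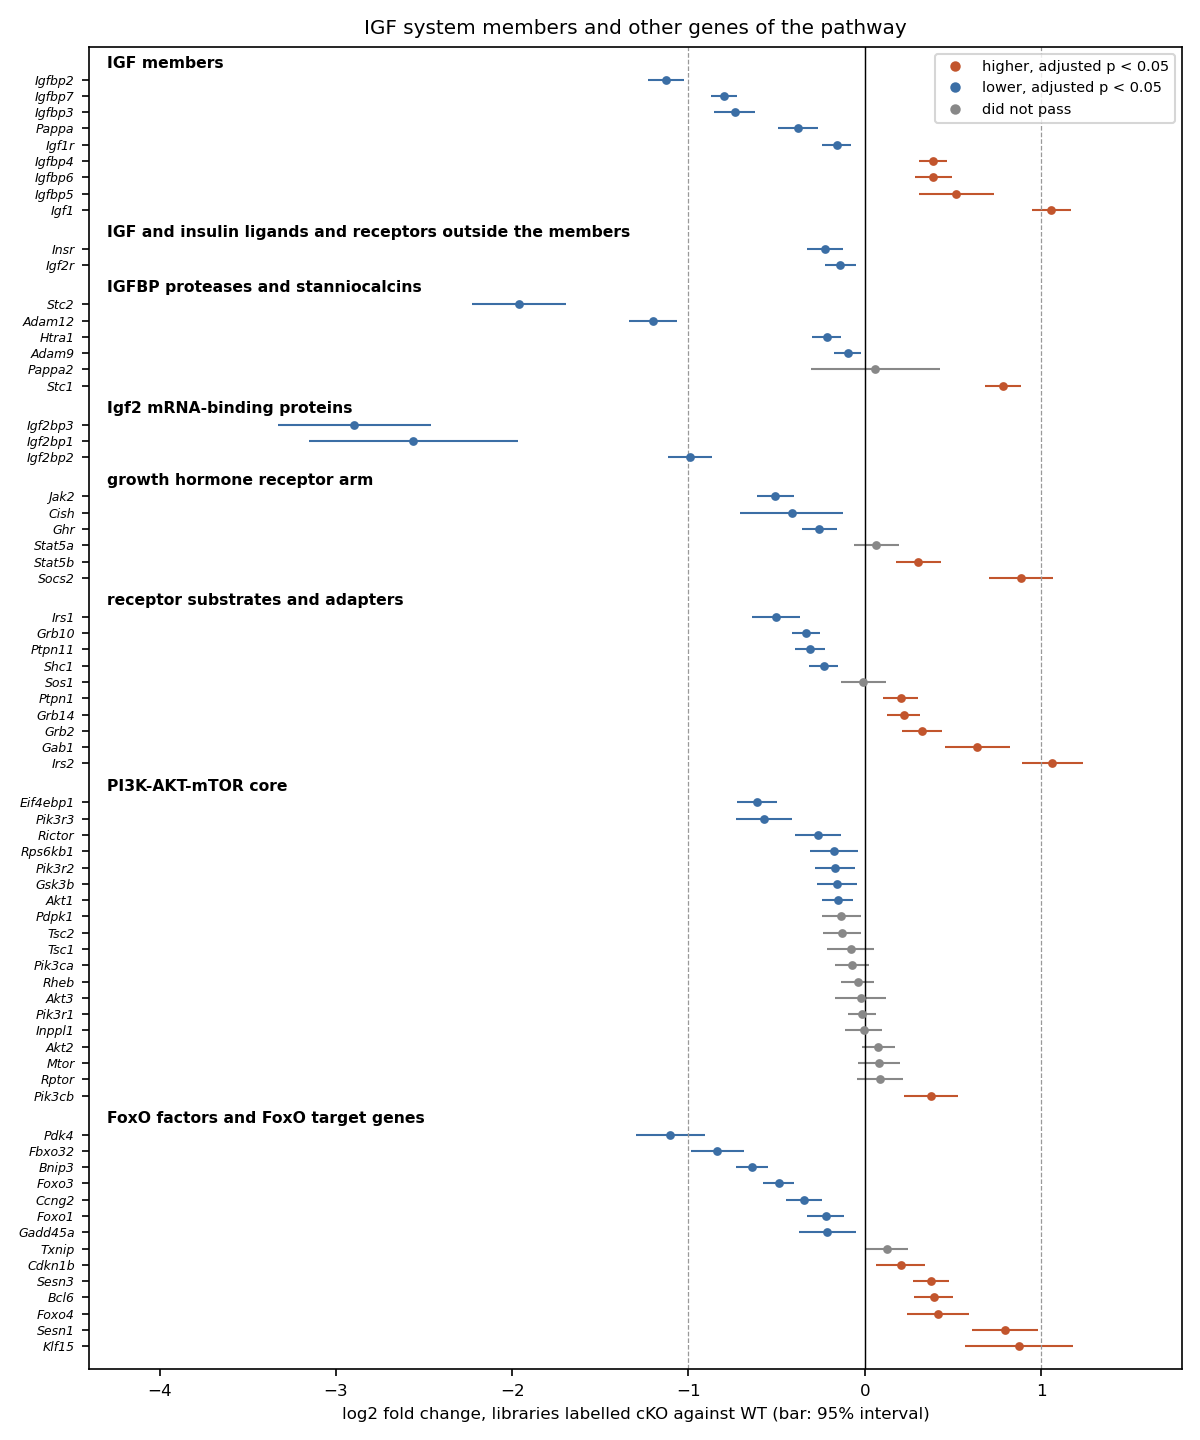
Log2 fold change of the 9 tested genes and of 60 other tested genes of the pathway, libraries labelled cKO against WT, with 95% intervals as bars and dashed lines at 1 and -1. Orange genes were higher and blue genes lower at an adjusted p below 0.05, and grey genes did not pass. *Igf2bp3*, *Igf2bp1* and *Stc2* lie farthest to the left, and 11 of the 19 genes drawn for the PI3K, AKT and mTOR core are grey and close to 0.

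Across 8 further lists of the pathway, 61 of 73 genes were tested, of which 15 rose, 30 fell and 16 did not pass. This is 73.8% passing beside the 39.3% of all tested genes and the 60.3% of those with a mean of at least 50 CPM. The lists were chosen with earlier results of these data known, and some of their genes lie below 50 CPM, so these shares are only a description. Their median log2 fold change was -0.13, and with a limit of 1 in size 1 gene was higher and 5 were lower.

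The growth hormone receptor arm, which drives *Igf1* transcription through STAT5, had 2 genes that rose and 3 that fell among 6. *Socs2*, a STAT5 target that damps growth hormone signalling, rose from 11.6 ± 0.627 to 21.4 ± 0.509 CPM, and *Stat5b* from 42.4 ± 1.62 to 52.3 ± 3.56 CPM (SD, n = 3 each). *Jak2*, the kinase bound to the receptor, fell from 91.3 ± 3.95 to 64.2 ± 1.09 CPM, and *Ghr*, the receptor, from 96.7 ± 2.05 to 80.9 ± 1.83 CPM (SD, n = 3 each). *Cish*, another STAT5 target, fell with a log2 fold change of -0.41, so that the STAT5 targets of this list moved in opposite directions. *Stat5a* did not pass, with a log2 fold change of 0.07.

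Among 10 tested receptor substrates and adapters, 5 rose, 4 fell and *Sos1* did not pass. The main insulin receptor substrates of non-neural cells moved in opposite directions. *Irs2* stood at 13.7, 14.7 and 15.0 CPM in WT and at 27.8, 30.5 and 32.5 CPM in the libraries labelled cKO (log2 fold change 1.06, standard error 0.082, adjusted p = 8.26e-09 by edgeR's quasi-likelihood test, Benjamini-Hochberg). *Irs1* stood at 66.6, 66.8 and 64.7 CPM in WT and at 47.6, 50.85 and 41.4 CPM in the libraries labelled cKO (log2 fold change -0.50, standard error 0.064, adjusted p = 5.23e-06 by edgeR's quasi-likelihood test, Benjamini-Hochberg). Both genes were without overlap between the groups. *Grb10*, an adapter that restrains both receptors and is imprinted, fell from 287.3 ± 1.96 to 228.0 ± 5.31 CPM, and *Gab1*, a docking protein, rose from 23.3 ± 2.65 to 36.2 ± 3.18 CPM (SD, n = 3 each).

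In the PI3K, AKT and mTOR core, 1 of 20 genes rose, 7 fell and 12 did not pass, and the median log2 fold change was -0.075. This share of calls is close to the 39.3% of all tested genes. It is below the 60.3% of genes with a mean of at least 50 CPM, a level that most of the 20 reach. *Eif4ebp1*, the translation repressor that mTOR inactivates, fell from 84.6 ± 2.88 to 55.4 ± 3.12 CPM, and *Pik3r3*, a regulatory subunit of PI3K, from 25.8 ± 0.55 to 17.4 ± 0.872 CPM (SD, n = 3 each). *Pik3cb*, a catalytic subunit, rose from 28.5 ± 2.80 to 37.0 ± 0.873 CPM (SD, n = 3 each). Among the genes that did not pass were *Mtor*, *Rptor*, *Akt2* and *Pik3ca*, with log2 fold changes between -0.07 and 0.09.

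FoxO factors and FoxO target genes moved in both directions, with 6 of 14 tested genes rising and 7 falling. *Foxo3* fell from 166.5 ± 0.965 to 118.6 ± 2.89 CPM and *Foxo1* from 82.4 ± 1.85 to 70.7 ± 3.06 CPM, whereas *Foxo4* rose from 21.5 ± 2.20 to 28.7 ± 1.548 CPM (SD, n = 3 each). Of the targets, *Pdk4*, a kinase that shuts off pyruvate dehydrogenase, fell from 28.6 ± 1.85 to 13.3 ± 1.62 CPM, and *Fbxo32*, a ubiquitin ligase, from 32.8 ± 1.08 to 18.4 ± 0.752 CPM (SD, n = 3 each). *Bnip3*, a mitophagy receptor, fell from 591.3 ± 32.6 to 379.6 ± 5.74 CPM, whereas *Sesn1*, a stress-induced inhibitor of mTORC1, rose from 12.7 ± 1.11 to 21.96 ± 0.186 CPM (SD, n = 3 each). No single direction held for the targets, which include *Klf15*, *Sesn3*, *Bcl6* and *Cdkn1b* among those that rose.

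**Figure D4:**
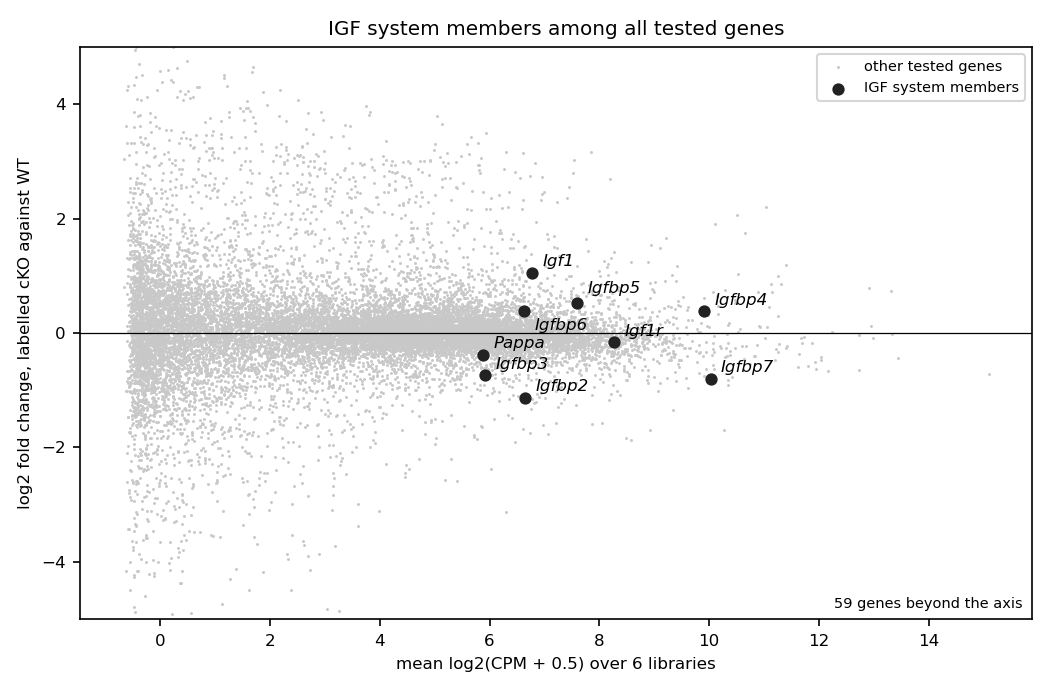
Log2 fold change of all 17146 tested genes (libraries labelled cKO against WT) against their mean log2(CPM + 0.5) over 6 libraries, with the 9 tested genes of the IGF system in black. *Igf1* (1.06) and *Igfbp2* (-1.13) lie farthest from 0 among the 9, *Igf1r* (-0.16) nearest, and 59 genes fall beyond the axis limit of 5 in size.

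For each of the 9 genes, the most similar profiles over the 6 libraries were sought among all tested genes by the Euclidean distance of centred log2(CPM + 0.5) values. Nearest to *Igf1* were *Itgbl1* (distance 0.079) and *Mcl1* (0.092), and nearest to *Igfbp2* were *Adamts2* (0.11) and *Notch3* (0.12). *Igfbp7* was nearest to *Tmem45a* (0.057) and *Stk39* (0.076), *Igfbp3* to *Nox4* (0.056) and *Sema3a* (0.089), and *Pappa* to *Hk2* (0.04) and *Sfxn1* (0.057). *Igfbp4* was nearest to *Tnfrsf1b* (0.062) and *Tent5a* (0.063), *Igfbp6* to *Trafd1* (0.048) and *Fblim1* (0.053), and *Igf1r* to *Adipor1* (0.025) and *Dlg3* (0.033). The nearest genes to *Igfbp5* lay farther off, *Adhfe1* at 0.18 and *Gm42937* at 0.19, and both have low counts. These distances rest on 6 libraries in 2 groups and say nothing of shared function or control.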

How the data were processed

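RNA was measured in 3 WT libraries and 3 libraries labelled cKO, all stimulated, and each library was assigned by its title. Paired reads of 150 bp were trimmed by the authors, mapped on mm39 (GRCm39) and counted by gene. The submitters' processing notes name HISAT2 2.0.5 and featureCounts 1.55.0-p3, the methods name another featureCounts release and RSEM, and the strand setting is not given in the sources used here. The authors deposited raw counts and the length of each gene in bases, with no normalization, and 0 columns of counts were without a matching library.

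Counts were analysed with edgeR 4.0.16 in R 4.3.3 (filterByExpr, TMM scaling, glmQLFit and glmQLFTest, genotype as the only term), with Benjamini-Hochberg adjustment over all 17146 tested genes. A gene was called at an adjusted p below 0.05, and counts with a log2 fold change of at least 1 in size are given beside this. CPM uses the TMM-scaled library size, and RPKM divides CPM by the deposited gene length in kilobases. Depth was 39566835 to 49734046 counts. Counts of replicates differed by more than the sampling noise of independent counts (chi-square per gene 4.71 to 13). Such an excess does not show that the libraries came from separate animals. All 6 libraries were counted separately. Of the counts from 1 to 10 in a library, 63.4% to 65.7% were even, for a reason that was not tested.

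The 10 genes, the lists and the markers were chosen with earlier results of these data known. Genes were named if they were *Gsdmd*, one of the 10, a list gene past both limits, 1 of up to 4 list genes with the smallest p, 1 of the 2 nearest profiles, a neighbour such as *H19*, or a defining marker. Other list genes in the text (such as *Gab1*, *Cish* and *Foxo1*) and the overlapping genes *Polr2b* and *Igf1os* were added once their values were known. In the list of FoxO targets, 17 of 18 symbols were in the table. The values of 1 gene of the PI3K list, which its counts include, are not reported here.

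On simulated data (17146 genes, of which 16853 were tested), 56 of 98 genes changed 1.5-fold and 66 of 96 changed 2-fold were recovered, and 9 unchanged genes were called. The alternatives were DESeq2 1.42.0, limma-voom (limma 3.58.1), edgeR's exact test, other scalings, other filters, replicate number as a block, halved counts and each library left out in turn. After seeing the data, 1 more was added, shares computed from CPM in place of RPKM. Promoter sequences came from RefSeq (GRCm38.p6) and were matched exactly to GRCm39. Western blots, co-cultures and single-cell data were not analysed here.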

Additional observations from a re-analysis of the deposited data

How the results depend on the processing

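The 9 tested genes kept their direction and stayed below an adjusted p of 0.05 in each of the 16 alternative settings, with 4 higher and 5 lower in all of them, also with each library left out, and 1 higher and 1 lower with the limit of 1 on the fold change. Of 256 values recomputed in these 16 settings, 255 kept their direction and their side of the threshold or stayed within 1.5 times the count. The shares computed from CPM are not among these values and differed from those in RPKM, as given below. The exception was upper-quartile scaling, under which *Igf1* was at 0.989 and 0 members in place of 1 were higher with a log2 fold change of at least 1. That scaling set the median of all genes at -0.061. The least certain calls were *Igf1r* and *Igfbp5*, whose largest adjusted p-values were 0.0257 (edgeR, without cKO replicate 2) and 0.0421 (DESeq2). Leaving out 1 library at a time put *Igfbp5* between 0.389 and 0.72 on the log2 scale, and the cause of the spread among WT libraries was not tested. In the other pathway lists, 14 to 16 genes were higher and 24 to 33 lower over all settings, and *Gsdmd* stayed between 0.626 and 0.743.

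The correlations of the deviations of same-numbered libraries were 0, 0.001 and -0.014, and those of libraries with different numbers lay between -0.015 and 0.015. Same-numbered libraries thus shared no visible deviation. This cannot decide whether they were prepared in pairs, which the sources used here do not state. With the replicate number as a block, 4 members were higher and 5 lower, *Igf1* was at 1.06 and *Igfbp2* at -1.129, the other lists had 15 higher and 27 lower genes, and no call of a member changed.

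With CPM in place of RPKM, which leaves out gene length, *Igfbp7* made up 51.11% of the summed binding-protein level in WT and 33.63% in the libraries labelled cKO, *Igfbp4* 31.28% and 46.81%, *Igfbp6* 3.192% and 4.788%, and *Igfbp2* 5.496% and 2.881%. On that scale *Igfbp4* and not *Igfbp7* had the largest share in the libraries labelled cKO, since the gene length of *Igfbp4* in the table (4416 bases) is larger than that of *Igfbp7* (1209 bases). Depth limits *Igf2*, with 4 to 11 counts in a library, for which no difference could be shown.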
